A study of Homo sapiens with 2 samples.

Results

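Mucins, trefoil peptides and goblet cell genes were followed in a comparison of SOX2 knockdown with mock knockdown in SW620, an established human cell line of colorectal cancer that was grown out from a lymph node metastasis. The 10 genes MUC1, MUC2, MUC5AC, MUC13, TFF1, TFF2, TFF3, SPDEF, AGR2 and FCGBP were taken by name, through every probe set that the platform annotation gave to exactly 1 of these symbols. That gave 21 probe sets, of 41091 probe sets and 19775 genes named in this way on the array. Both cultures were grown in RPMI-1640 medium and carried a short hairpin RNA delivered by lentivirus, one against SOX2 and the other a mock hairpin with no target. Neither the number of hairpins nor the time after infection is given in the labels. Each group held 1 Affymetrix array, called here the mock array and the shSOX2 array, so there was no replicate and no test, and having 2 arrays in all limits the precision of each value. A description field of both samples names mouse liver, which fits none of the other labels, and the titles end in KO where the source names say knockdown.

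Goblet cells are the mucus-secreting cells of the intestinal epithelium. They pack gel-forming mucins, heavily O-glycosylated proteins, into granules together with trefoil factor peptides, small disulfide-rich proteins that protect and repair the mucosa. Other mucins stay anchored in the apical membrane. SOX2, the factor knocked down, is a transcription factor of pluripotent cells that also takes part in the identity of the foregut and stomach.

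Differences were taken as the log2 intensity on the shSOX2 array minus that on the mock array. An intensity of 68.5, which is the median of all deposited values, served as a floor, and a gene was measured where its value reached the floor on at least 1 array. The value of a gene is that of its brightest probe set, and genes were counted at a limit of 2-fold, a difference of 1. The median intensity was 69.0 on the mock array and 68.1 on the shSOX2 array, and the median difference of the 13609 measured genes was -0.0063. The differences given by probe sets of 1 gene varied with an SD of 0.49 over 6440 genes, and 64.7% of all genes differed by less than that. This SD holds no variation between cultures or arrays. SOX2 stood at 2077 on the mock array and 20.9 on the shSOX2 array at its brightest probe set, at least 30.3-fold lower. A second probe set of SOX2 above the floor on both arrays read 333 and 120.5, or 2.76-fold lower, and the other 2 stayed under the floor. Of the 9 colorectal epithelium markers, all were measured, among them EPCAM at 8910 and 9898 and KRT18 at 17410 and 21262. Others were dim on the mock array. LGALS4 read 39.1, under the floor, and 6010, CDX2 read 69.2 and 116, and CDX1 read 130 and 133. Of 4 leukocyte and 4 fibroblast markers, PTPRC, CD3E, COL1A2 and COL3A1 were under the floor on both arrays. CD79A read 123 and 116, CD14 43.6 and 156, COL1A1 290.0 and 237, and DCN 91.5 and 110.

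Of the 10 genes, 9 were measured. On the shSOX2 array AGR2, TFF1 and MUC13 were higher by 2-fold or more, TFF3 was lower by as much, and the other 5 lay within 2-fold. Among all measured genes 8.44% were higher by as much and 7.29% lower, together 15.7%. The median difference of the 9 genes was 0.05. RNA was taken from whole cultures, so fewer cells that express a gene and less RNA per cell cannot be told apart. By probe set, 18 of the 21 reached the floor, and past 2-fold 6 of these were higher and 1 was lower, against 8.08% and 6.87% of all named probe sets that reached it.

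**Figure D1:**
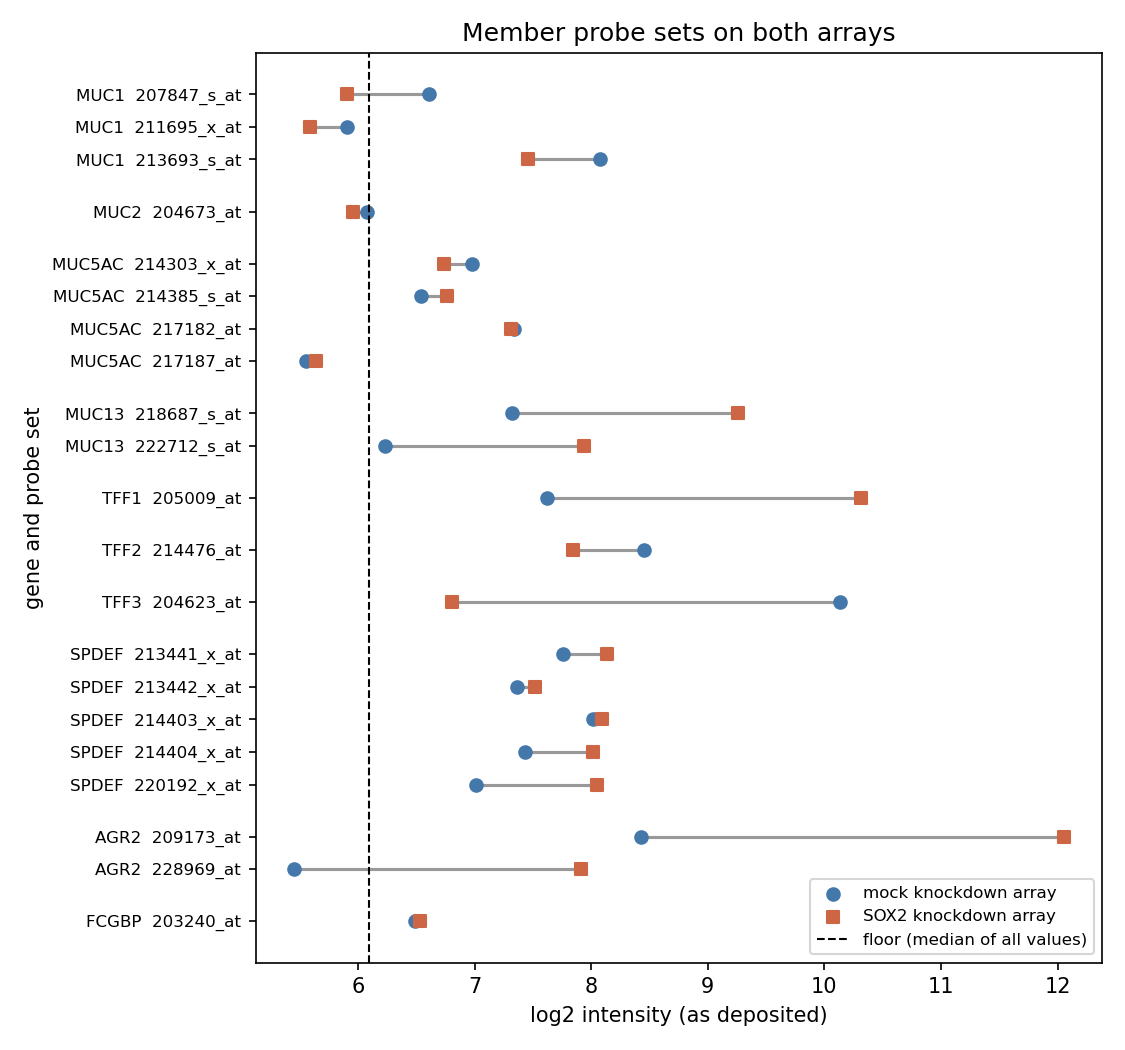
Log2 intensity of the 21 probe sets (x axis) on the mock knockdown array (circles) and the SOX2 knockdown array (squares), 1 array each, with the floor of 6.10 as a dashed line. TFF3 moves from 10.14 to 6.80, AGR2 from 8.43 to 12.05 at its brightest probe set, and MUC2 lies left of the line on both arrays.

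Of the 4 mucins of the set, the membrane mucin MUC13 alone passed the limit. MUC13 is a transmembrane mucin of the intestinal surface that carries EGF-like domains. Its brightest probe set, 218687_s_at, read 160 on the mock array and 612 on the shSOX2 array, a difference of 1.94 or 3.83-fold. The second, 222712_s_at, read 75.1 and 245, a difference of 1.71. Both probe sets were above the floor on both arrays and differed from each other by 0.23, less than the SD between probe sets. Of all measured genes, 446 had a difference at least as high.

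MUC13 and AGR2 were the genes in which several probe sets all passed the limit, and their promoters are therefore shown. They come from RefSeq on GRCh38.p14, from 250 bases before the start of the gene to 50 after it, 5′ to 3′ on the strand of the gene. The MUC13 promoter lies on the minus strand at chr3:124934702-124935001 and that of AGR2 on the minus strand at chr7:16804950-16805249. Capitals mark a SOX core, searched as ACAAAG or ACAATG on both strands.
MUC13: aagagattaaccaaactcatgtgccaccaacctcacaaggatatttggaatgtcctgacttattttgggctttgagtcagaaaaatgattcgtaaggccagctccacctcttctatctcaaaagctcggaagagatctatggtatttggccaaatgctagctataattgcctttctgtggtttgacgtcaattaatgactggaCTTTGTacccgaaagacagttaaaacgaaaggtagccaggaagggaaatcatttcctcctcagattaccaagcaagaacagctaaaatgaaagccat
AGR2: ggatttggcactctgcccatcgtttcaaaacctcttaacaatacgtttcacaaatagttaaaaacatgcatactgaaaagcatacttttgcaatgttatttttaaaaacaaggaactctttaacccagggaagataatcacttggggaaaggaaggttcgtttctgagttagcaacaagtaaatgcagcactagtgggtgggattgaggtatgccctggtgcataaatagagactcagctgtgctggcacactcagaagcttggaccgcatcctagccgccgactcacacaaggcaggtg
The MUC13 window held 1 SOX core, CTTTGT, which is ACAAAG on the other strand, beginning at position -47 from the start of the gene. The AGR2 window held none. Of 35116 RefSeq promoters of the same length, 24.5% held such a core, and of the 6 genes of the set found in that table (MUC1, MUC2, MUC13, SPDEF, AGR2 and FCGBP) it was present in 1. The FOXA core, searched as TGTTTAC or TGTTTGC on both strands, was in 0 of the 6 and in 7.17% of all promoters. The windows of MUC13 and AGR2 were 41.0% and 43.7% G and C. No promoter of TFF1, TFF2, TFF3 or MUC5AC was used here. Such matches are descriptions of letters in a window.

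MUC1, the membrane mucin of many glandular epithelia whose cytoplasmic tail takes part in signalling, had 3 probe sets and was lower at each of them. The brightest, 213693_s_at, read 269 on the mock array and 176 on the shSOX2 array, a difference of -0.61 that left 65.5% of the mock value. The second, 207847_s_at, read 97.6 and 60.1, and since the lower value was under the floor its difference of -0.70 is -0.51 against the floor. The third, 211695_x_at, stayed under the floor with 59.8 and 48.3. The brightest difference was a little larger than the SD between probe sets, and 14.1% of measured genes were lower by at least as much.

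Of the gel-forming mucins of the set only MUC5AC was measured, and it showed little difference. MUC2, the main mucin of the colonic mucus layer, read 67.7 on the mock array and 62.2 on the shSOX2 array at its only probe set. Both values were under the floor, so MUC2 was not measured and no fold is given. MUC5AC, the gel-forming mucin of the gastric surface and airways, read 162 and 159 at its brightest probe set, 217182_at, a difference of -0.03. The other 3 probe sets of MUC5AC differed by -0.24, 0.22 and 0.09, of which the last stayed under the floor. Its probe sets therefore went in both directions, each by less than the SD between probe sets.

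The trefoil peptides went apart. TFF1, the trefoil peptide of gastric surface mucous cells, read 196 on the mock array and 1271 on the shSOX2 array. That is a difference of 2.69 or 6.47-fold, and 254 of the measured genes, or 1.87%, had one at least as high. TFF3, the trefoil peptide of intestinal goblet cells, read 1126 on the mock array and 112 on the shSOX2 array. Its difference of -3.33 left 9.93% of the mock value, and 108 measured genes, or 0.79%, were lower by at least as much. The shSOX2 value of TFF3 was less than 2-fold above the floor of 68.5, so the size of its difference is uncertain. TFF2, the trefoil peptide of gastric mucous neck and gland cells, read 351 and 229, a difference of -0.62 that lay within the limit. All values of the 3 genes were above the floor on both arrays. The differences of TFF1 and TFF3 were 6.03 apart. Each trefoil gene had 1 probe set, so no second probe set bears on these values.

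The 3 trefoil genes lie side by side on chromosome 21 in the order TFF3, TFF2 and TFF1, per the RefSeq table of GRCh38.p14. The nearest gene with a probe set on the TFF3 side is ABCG1, a transporter that exports cholesterol, and it went the opposite way to TFF3. It read 63.4 on the mock array, under the floor, and 253 on the shSOX2 array, at least 3.70-fold higher. On the TFF1 side, the membrane serine protease TMPRSS3 read 130 and 95.8, a difference of -0.44. Along these 5 neighbours the differences were at least 1.89, then -3.33, -0.62, 2.69 and -0.44. TFF3 and its neighbour TFF2 were both lower, while ABCG1 and TFF1 were higher. The values of TFF2 and TMPRSS3 lay within 2-fold, and that of TMPRSS3 was smaller than the SD between probe sets. MUC2 and MUC5AC lie next to each other on chromosome 11, between LINC02688, at 0.16, and MUC5B, a gel-forming mucin of airways and glands, at -0.04. Of these 4 genes MUC2 was not measured and the other 3 lay within 2-fold.

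Among the goblet cell genes AGR2 had a larger difference at its brightest probe set than any of the other 9 genes. As the mean over its probe sets it was 3.04, smaller in size than that of TFF3. AGR2 is a protein disulfide isomerase of the endoplasmic reticulum that assists the folding of mucins. Its brightest probe set, 209173_at, read 345 on the mock array and 4255 on the shSOX2 array, a difference of 3.63 or 12.3-fold. The second, 228969_at, read 43.8 and 240, and with the mock value under the floor it was at least 3.51-fold higher. The 2 probe sets differed in the size of the change by 1.17, more than the SD between probe sets, and had the same direction. Of measured genes, 132, or 0.97%, had a difference at least as high as the brightest probe set.

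SPDEF, an ETS family transcription factor of goblet and Paneth cell maturation, was above the floor at all 5 of its probe sets. Its brightest, 214403_x_at, read 258 and 272, a difference of 0.08. The other 4 read from 129 to 216 on the mock array and from 184 to 280 on the shSOX2 array, and differed by 0.16, 0.38, 0.59 and 1.05. All 5 were higher on the shSOX2 array, and 1 of them, 220192_x_at, passed the limit with 129 and 266. The names of all 5 end in _x_at, which in Affymetrix naming marks probes that can match other transcripts. FCGBP, the Fc gamma binding protein that is secreted with MUC2 into mucus, read 89.6 and 92.7 at its only probe set, a difference of 0.05.

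**Figure D2:**
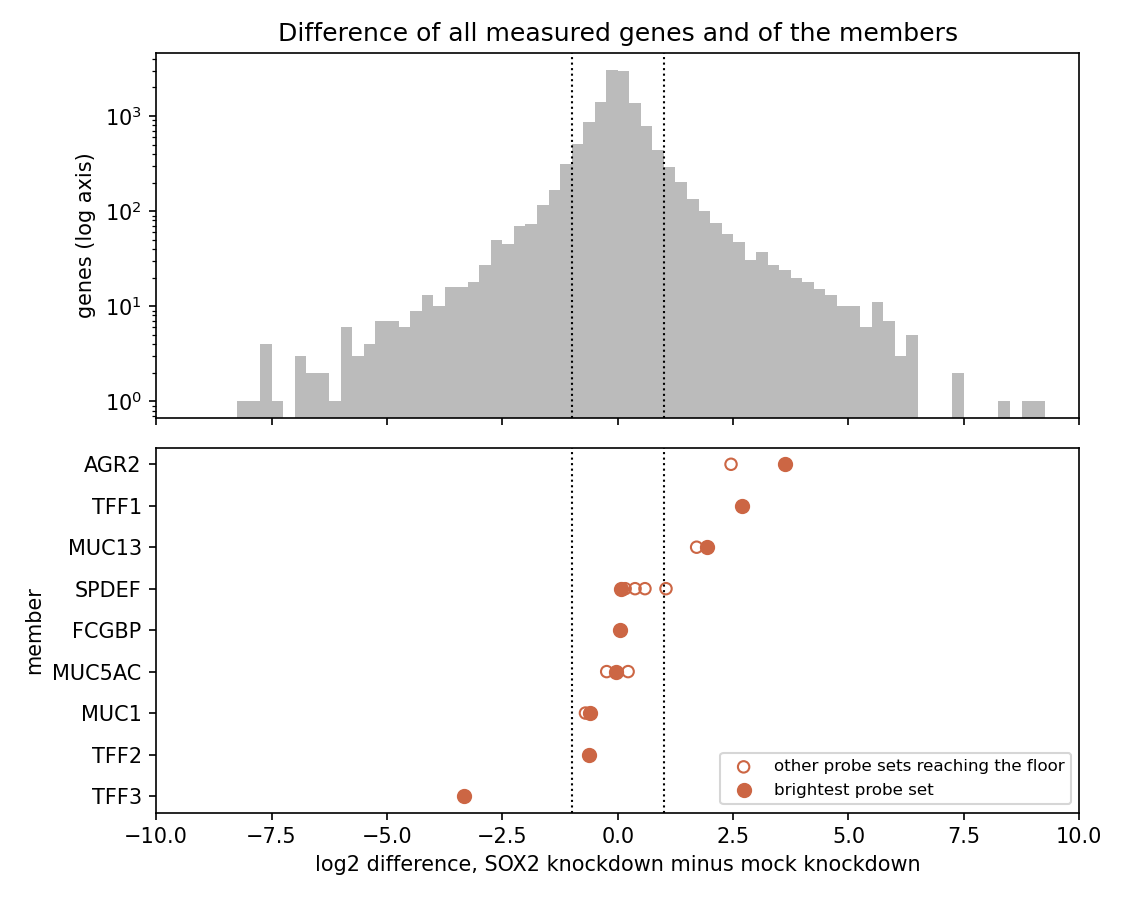
Log2 difference, SOX2 knockdown minus mock knockdown, of all 13609 measured genes (upper panel, number of genes on a log axis) and of the 9 measured genes of the set (lower panel, filled points for the brightest probe set, open points for other probe sets that reached the floor). Dotted lines mark 2-fold. AGR2, TFF1 and MUC13 lie to the right at 3.63, 2.69 and 1.94 and TFF3 to the left at -3.33, while the other 5 brightest values lie between -0.62 and 0.08.

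The remaining mucins were set beside these genes. For these and for each list below, the share of all measured genes past the limit was 8.44% higher and 7.29% lower. Of the other gel-forming mucins 2 of 3 were measured and none passed the limit, and MUC6, a mucin of gastric glands, read 151 and 142. Of 7 other membrane mucins on the array 5 were measured, and 1 passed the limit. That was MUC20, which read 63.0 on the mock array, under the floor, and 757 on the shSOX2 array, at least 11.1-fold higher at its brightest probe set. The 4 probe sets of MUC20 all reached the floor, and their differences ran from 0.18 to 4.33. The median difference of the 5 membrane mucins was 0.52, against -0.0063 for all genes. With values under the floor raised to it the median was 0.43, less than the SD between probe sets.

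Transcription factors of the secretory lineage went both ways. Of 9 on the list 7 were measured, of which 2 were higher and 1 was lower past the limit, and the median difference was 0.24. Of all measured genes 8.44% were higher and 7.29% lower by as much. FOXA1, a forkhead pioneer factor of gut endoderm, read 39.9 on the mock array, under the floor, and 361 on the shSOX2 array, at least 5.27-fold higher. CREB3L1, a membrane-bound factor of secretory cells, was at least 3.43-fold higher, though its other probe set differed by 0.21. FOXA2, a close relative of FOXA1, read 903 and 138, a difference of -2.71, while the 3 probe sets of FOXA2 ran up to 0.04. ATOH1, the factor that commits intestinal cells to the secretory fate, and GFI1, its target, were under the floor on both arrays.

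Most other goblet cell products showed little signal. Of 9 on the array 5 were measured, of which 2 passed the limit upward and none downward, and the median was 0.24. All measured genes passed it at 8.44% upward and 7.29% downward. AGR3, the paralog of AGR2, read 19.2 on the mock array and 486 on the shSOX2 array, at least 7.10-fold higher. WFDC2, a secreted protease inhibitor, read 181 and 1143, a difference of 2.66 at the only one of its 3 probe sets that reached the floor. CLCA1, SPINK4, ITLN1 and BEST2 were under the floor on both arrays.

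Enzymes of mucin O-glycosylation differed in both directions. Of 19 measured, 8 were higher and 3 lower past the limit, where 8.44% and 7.29% of all genes were. The median was 0.30, or 0.14 with values under the floor raised to it. GCNT3, which builds core branches of mucin glycans, read 76.2 on the mock array and 4521 on the shSOX2 array, 59.3-fold higher. That mock value was just above the floor, so the size of the fold is uncertain. GALNT14, which adds the first sugar, was at least 14.1-fold higher, and the sialyltransferase ST3GAL1 read 109 and 2007, or 18.5-fold higher. The lowest were GALNT5 at -1.72, GALNT6 at -1.48 and GALNT7 at -1.02, all of which also add the first sugar. Of 10 measured genes of mucin granule secretion 2 passed the limit upward and none downward, and the median was 0.38. SYTL2, a synaptotagmin-like partner of RAB27 proteins, was at least 7.06-fold higher, and the granule GTPase RAB3D differed by 1.65, with its other probe set at -0.07.

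**Figure D3:**
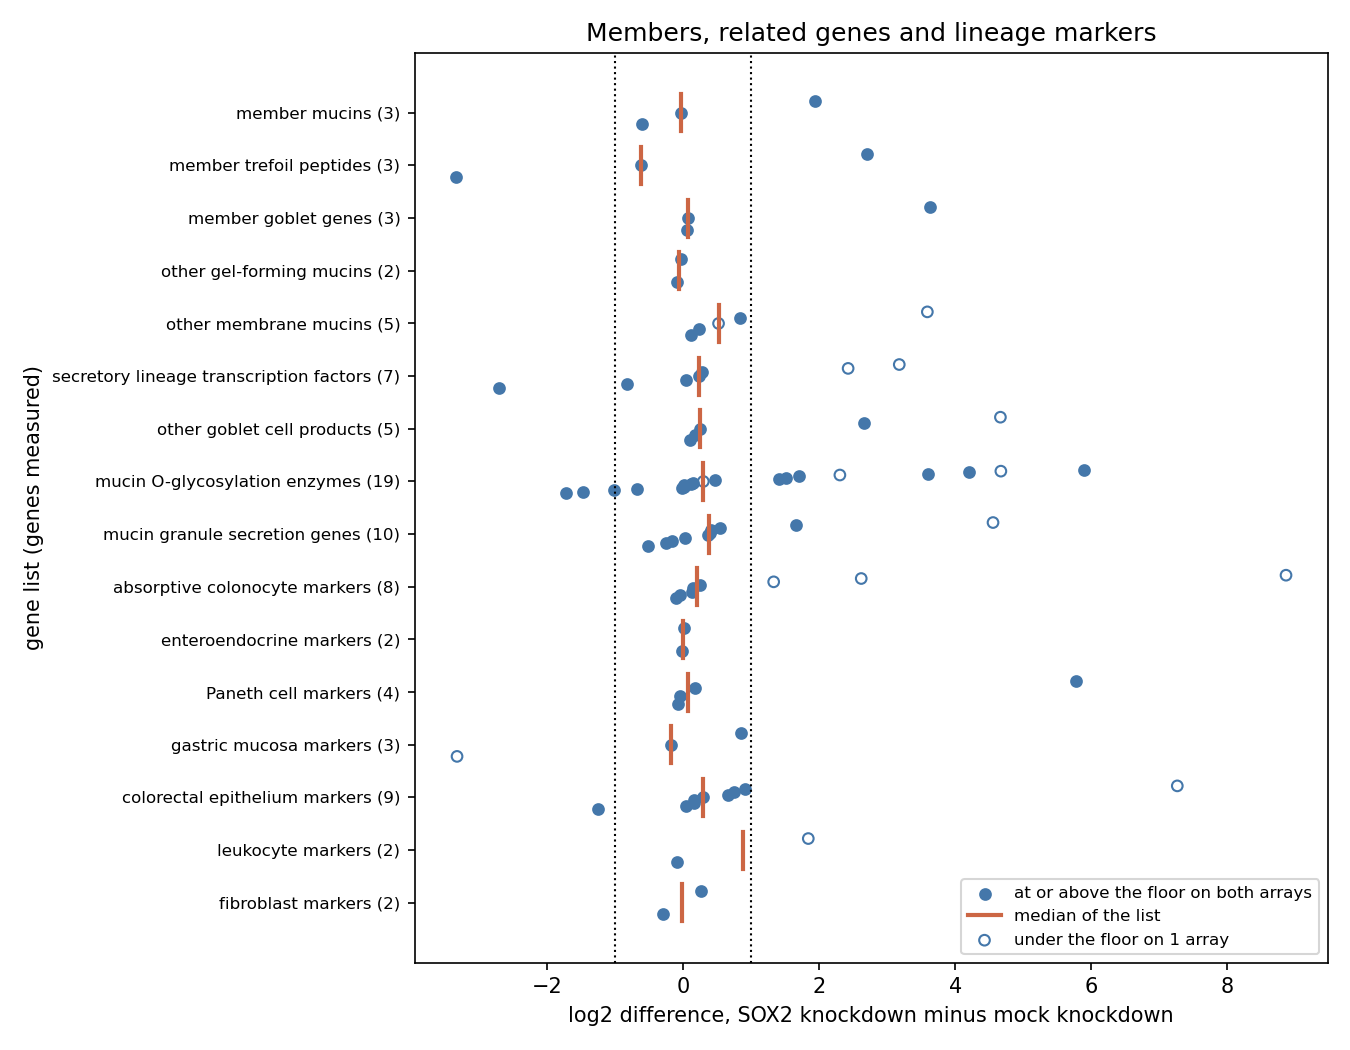
Log2 difference as deposited, SOX2 knockdown minus mock knockdown, of each measured gene (points) in the set and in 13 further lists, with the number of measured genes in brackets and list medians as bars. Open points were under the floor on 1 array, so their distance from 0 is larger than the bound that can be given. Trefoil peptides, secretory lineage factors, O-glycosylation enzymes and colorectal epithelium markers hold points past both dotted lines at 2-fold, whereas the medians of all lists lie between them.

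Some markers of other epithelial lineages also differed between the arrays. Of 8 measured absorptive colonocyte markers 3 passed the limit upward and none downward, and the median was 0.20. Over all measured genes the shares were 8.44% upward and 7.29% downward. The summed intensity of the 11 on the array was 646 on the mock array and 11570 on the shSOX2 array, of which KRT20, a keratin of differentiated colonocytes, made 10763. CA2, a carbonic anhydrase, was at least 2.15-fold higher, and CEACAM7 at least 1.06-fold, within the limit once its mock value is taken at the floor. CA1, SLC26A3 and FABP1 were under the floor on both arrays. Of 5 Paneth cell markers 4 were measured and 1 passed the limit, LYZ, the secreted lysozyme, with 213 and 11691, while DEFA5 was under the floor and DEFA6 read 77.5 and 73.6. The part of these lineages in the differences of the mucins and trefoil peptides was not tested.

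Of 7 enteroendocrine markers on the array 2 were measured and none passed the limit, with SYP, a vesicle protein, at 155 and 153. Of 6 gastric mucosa markers 3 were measured and 1 was lower, VSIG1, an adhesion protein of the stomach, at least 2.89-fold. CTSE, a gastric protease, read 84.8 and 152, a difference of 0.84, and PGC, a pepsinogen, read 126 and 112. GKN1, GKN2 and CLDN18 were under the floor on both arrays. Of the 9 colorectal epithelium markers LGALS4 was higher and VIL1 lower past the limit, the latter with probe sets from -1.25 to -0.19, and the median was 0.29. Of 4 leukocyte markers CD14 alone passed the limit, at least 2.28-fold higher, and of 4 fibroblast markers none did.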

How the data were processed

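Biotin-labelled cRNA was made from Trizol-extracted total RNA, per the labels' protocols. The authors deposited 1 intensity per probe set and array, on a linear scale, and the submitters' processing notes name RMA. This method corrects background, equalises quantiles between arrays and summarises probes, so a shift in overall RNA content is hidden. Settings, the arrays processed together and the route to a linear scale were not given in the sources used here.

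Log2 values were taken without a pseudocount. Of 54675 probe sets 62 were controls, 1801 had several symbols and 11721 none, and these were left unnamed. A gene was taken by the probe set with the highest mean log2 value. Values under the floor give bounds for named genes, while counts and medians use values as deposited. Symbols of all 10 genes were found in the RefSeq table, whose coordinates were used for gene order and promoters only. From each list up to 3 genes in each direction past 2-fold were named, or the brightest where none passed; genes under the floor, and other list members given as examples, were named after their values were seen. The genes and lists were chosen with earlier results of these data known. The counting by limit was also run on simulated data. Differences were planted there only in genes well above the floor, with noise smaller than the SD between probe sets. That run therefore does not bear on genes near the floor. Alternatives changed the normalization, floor, probe set, pseudocount and limit. Python 3.11.15, numpy 2.4.6, pandas 2.3.3 and matplotlib 3.10.9 were used.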

Additional observations from a re-analysis of the deposited data

How the results depend on the processing

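AGR2, TFF1 and MUC13 stayed at least 2-fold higher and TFF3 at least 2-fold lower under every alternative run in which the gene had a probe set. These were 13 alternatives for AGR2, TFF1 and TFF3 and 12 for MUC13, whose probe sets all have names that end in _s_at. Several of them could not change a call. TFF1 and TFF3 have 1 probe set each, so the choice of probe set left their values as they were. A lower or absent floor and a limit of 1.5-fold could remove no call. Nor could raising values under the floor to it, as AGR2, TFF1, MUC13 and TFF3 were above the floor on both arrays at their brightest probe sets. With a limit of 1.5-fold 3 genes of the set were lower in place of 1, as MUC1 and TFF2 joined TFF3. That limit raised the counts over all genes to 2044 higher and 2012 lower from 1148 and 992, and a limit of 3-fold reduced them to 604 and 467. The difference of AGR2 was 3.04 as the mean over its probe sets and 2.45 at the probe set with the smallest difference. The differences of the other 9 genes moved by less than the SD between probe sets under each alternative for normalization, probe set and pseudocount. Raising values to the floor could not move the difference of any measured gene of the set, as their brightest probe sets reached it on both arrays. It was not run for MUC2. MUC5AC ran from -0.04 to 0.01, SPDEF from 0.04 to 0.45 and TFF3 from -3.35 to -3.01. Without probe sets whose names end in _s_at, _x_at or _a_at, MUC1, MUC13 and SPDEF had no value. No paired analysis was possible because each group held 1 array, which also left no replicate to leave out. Signal over background limits MUC2, FCGBP, the dimmer probe sets of MUC1 and MUC5AC, the dimmest probe set of SPDEF and the second ones of MUC13 and AGR2 on the mock array, and TFF3 on the SOX2 knockdown array, whose values lay under the floor or less than 2-fold above it.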

Other observations

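The polypeptide GalNAc transferases on the list of O-glycosylation enzymes, which start mucin O-glycosylation, were divided between the arrays. Genes of this family outside the list were not examined. These genes were singled out after their values were seen. Of 9 measured, 4 were at least 2-fold higher on the shSOX2 array, 3 were lower by as much and 2 were neither, where 8.44% and 7.29% of all measured genes were higher and lower. Beside GALNT14, GALNT3 read 140 on the mock array and 1697 on the shSOX2 array, a difference of 3.60. The other probe set of GALNT3 differed by 0.06 and stayed under the floor. GALNT12 read 355 and 1007, with both of its probe sets past 2-fold and the larger difference at 1.64. GALNT10 read 42.3, under the floor, and 209, at least 3.05-fold higher. On the lower side GALNT6 read 344 and 123, and its probe sets differed by -1.48 and -1.93. GALNT5 read 638 and 194, with -1.72 and -1.52 at the 2 probe sets that reached the floor. GALNT7 read 3263 and 1613, and its other probe set stood just within the limit at -0.92. GALNT1 differed by -0.68 and GALNT2 by 0.47.

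The FOXA factors were also divided, and were likewise picked out after their values were seen. Both probe sets of FOXA1 were higher, at 2.58 and 3.18 as deposited. FOXA3, at its only probe set, read 170 and 95.8. Its difference of -0.83 lay within the limit, in the direction of the brightest probe set of FOXA2. The probe sets of FOXA2 ran from -2.71 to 0.04. With 1 array per group no test was made.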
